A study of Danio rerio with 6 samples.

Results

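Solute carriers are the membrane proteins named slc, a family number, a letter and a member number. They were described here as the probe sets whose listed gene symbol starts with slc and a number, chosen by that name alone. The array held 155 such probe sets of 135 genes in 39 families, out of 15502 probe sets that are not controls and 8793 named genes. The 3 probe sets of slc12a3 and slc4a1a were left out of the group. The 155 include 2 that carry the prefix but are no transporters: slc4a1ap, which encodes an adaptor protein, and slc7a6os, named for a gene on the strand opposite slc7a6. The series compared 3 arrays of zebrafish embryos mutant for hand2 (the hanS6 allele) with 3 arrays of their wild-type siblings. Both groups were whole embryos from crosses of heterozygous carriers, raised at 28.5 °C and collected at 19 hours post fertilization. Each array was hybridised with the RNA of a pool of 10 to 25 embryos. Mutants were picked by their Tg(myl7:egfp) heart fluorescence, a green reporter under the promoter of a heart muscle gene that both groups were scored for. Sorting by a recessive phenotype leaves heterozygous embryos in the sibling group.

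Solute carriers move ions, sugars, amino acids, metals, nucleotides and organic acids across membranes, either along the solute's own gradient or coupled to sodium, protons, chloride or another solute. The family number groups members by sequence and, in most families, by the kind of cargo. In fish embryos of this age nutrients come from the yolk, the kidney tubules are forming from intermediate mesoderm, and blood precursors begin to take up iron for haem. The basic helix-loop-helix factor hand2 acts in heart and pectoral fin mesoderm and in the pharyngeal arches. The comparison asks which transporter transcripts differ between hand2 mutants and siblings at this stage.

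Values are MAS5 signals, the linear brightness of a probe set after the authors' scaling, and every array had a trimmed mean near 500.1. Signals of different probe sets are not on 1 scale, so no gene's level is set against another gene's. Differences are mutant minus sibling on the log2(signal + 16) scale, which understates the change of dim genes, with the standard error from limma after ±. As a check of the labels, hand2 itself was at 52.8, 50.9 and 45.1 in mutants, against 349, 448 and 292 in siblings, and was the only probe set of the 11626 tested that passed (limma, adjusted p = 0.0051). A signal no higher than the brightest of 17 Tag control probe sets on its own array was called background. That brightest control lay at 57.0 to 80.2 on the mutant arrays and 63.7 to 122.3 on the sibling arrays. Mutant replicate 1 had the lowest 3' to 5' log2 ratio of the acta1 control probe sets, 2.18, against 3.31 to 3.91 on the other 5 arrays. For the second such control, gapdh, its ratio was 1.73, close to the 1.77 to 2.08 of the other 5. In a fit without that array the median difference of the solute carriers was 0.075, against 0.076 with all arrays. The part of its 3' to 5' ratio in the results below was not tested. The embryos came from 3 independent crosses, but no label ties a replicate number to a cross, so p-values measure the spread between these pools. In whole embryos, fewer cells of a type and less RNA per cell cannot be told apart.

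No solute carrier transcript passed the test. Of the 155 probe sets, 128 of 110 genes lay above the intensity filter, a minimum on the mean over all 6 arrays, and were tested. The smallest adjusted p among them was 0.942 (limma), and the share past the threshold over all tested probe sets was 0.0086%. With the replicate number as a block the smallest was 0.53. At an unadjusted p under 0.05 there were 4 solute carrier probe sets, which is 3.12% of the 128 against 3.03% of all tested probe sets. All 4 were higher in the mutant and 0 were lower, where 2% of all tested probe sets were higher and 1.03% lower at that level. Among them, 2 were of slc4a2a, and the dimmer of these was tested only through its mutant arrays, as given below. The block moved the count of 4 to 12, all higher, or 9.38% against 7.41%. It was 18 without mutant replicate 3, 16 higher and 2 lower, and 14 without sibling replicate 1, where the shares over all probe sets were 11% and 7.52%. It was 2 without mutant replicate 2 (1.63% of all tested probe sets), and 3 each without mutant replicate 1, sibling replicate 2 or sibling replicate 3 (2.26%, 1.75% and 1.32%). The members' count moved with the whole array's in these fits, and nothing about the solute carriers is read from it.

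Fitted values of the solute carriers were nevertheless more often above 0 than below it. In the mutant 81 of the 128 were higher and 47 lower (63.3% higher, against 53.8% of all tested probe sets), with a median difference of 0.08 against 0.02 for all. The direction of that median depends on the scaling. After quantile normalization it was 0.051 against -0.012 for all tested probe sets, with 72 of 128 higher (56.2% against 47.7%). With all arrays shifted to a common median it was -0.0041 against -0.060, with 64 of 128 higher (50% against 39.3%). Most differences were small against their error: 74 of the 128 lay within 1 standard error of 0, and the 95% intervals of 112 lay between -1 and 1.

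**Figure D1:**
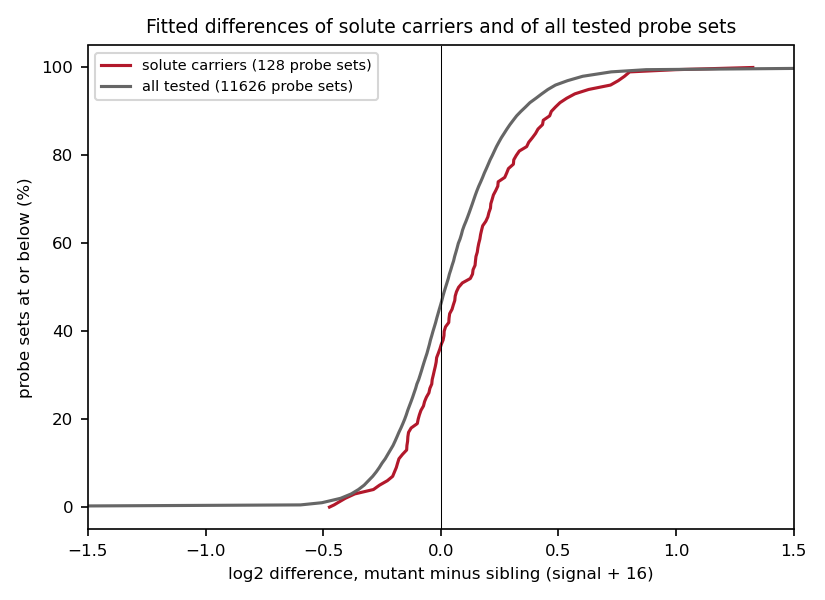
Cumulative share of probe sets (y axis, percent) at or below a fitted log2 difference, mutant minus sibling (x axis), for the 128 tested solute carrier probe sets in red and all 11626 tested probe sets in grey. The red curve lies to the right of the grey one over most of its length, with medians of 0.08 and 0.02, and the axis leaves out the few probe sets furthest from 0, hand2 among them.

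The largest fitted difference and the smallest p belonged to slc4a2a, an anion exchanger that swaps chloride for bicarbonate. Of its 3 probe sets, the one of smallest p was at 505, 536 and 164 in mutants, against 159.6, 146 and 99.5 in siblings (replicates 1, 2 and 3 in that order, here and below). Mutant replicates 1 and 2 were far above every sibling, mutant replicate 3 lay just above the highest sibling, and the groups did not overlap. The means were 402 ± 206 in mutants and 135 ± 31.5 in siblings (SD, n = 3 each). The fitted difference was 1.33 ± 0.40 (95% interval 0.44 to 2.22), with an unadjusted p of 0.0079 and an adjusted p of 0.942 in limma. Without mutant replicate 3 the difference was 1.85 and passed over all probe sets (limma, adjusted p = 0.029), the only solute carrier to do so under any setting tried. In that fit 20 of the 11626 tested probe sets passed (0.172%), against 1 with all arrays.

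Both other probe sets of slc4a2a had higher fitted values too. The second was at 77.2, 99.1 and 42.5 in mutants, against 37.3, 36.6 and 25.6 in siblings, and all 3 siblings and mutant replicate 3 were at background there. Those arrays also lay under the intensity filter's signal of 46.09. The probe set was thus tested only through mutant replicates 1 and 2, and its direction is no separate support. The third was at 112, 71.3 and 52.5 in mutants, against 42.9, 57.7 and 45.4 in siblings, with only mutant replicate 1 above background. Their fitted differences of 0.81 ± 0.27 and 0.51 ± 0.25 are therefore no exact sizes, and no fold against background could be given. At all 3 replicate numbers each of the 3 probe sets was higher in the mutant, and replicate number 3 had the smallest difference in each (0.64, 0.49 and 0.16).

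**Figure D2:**
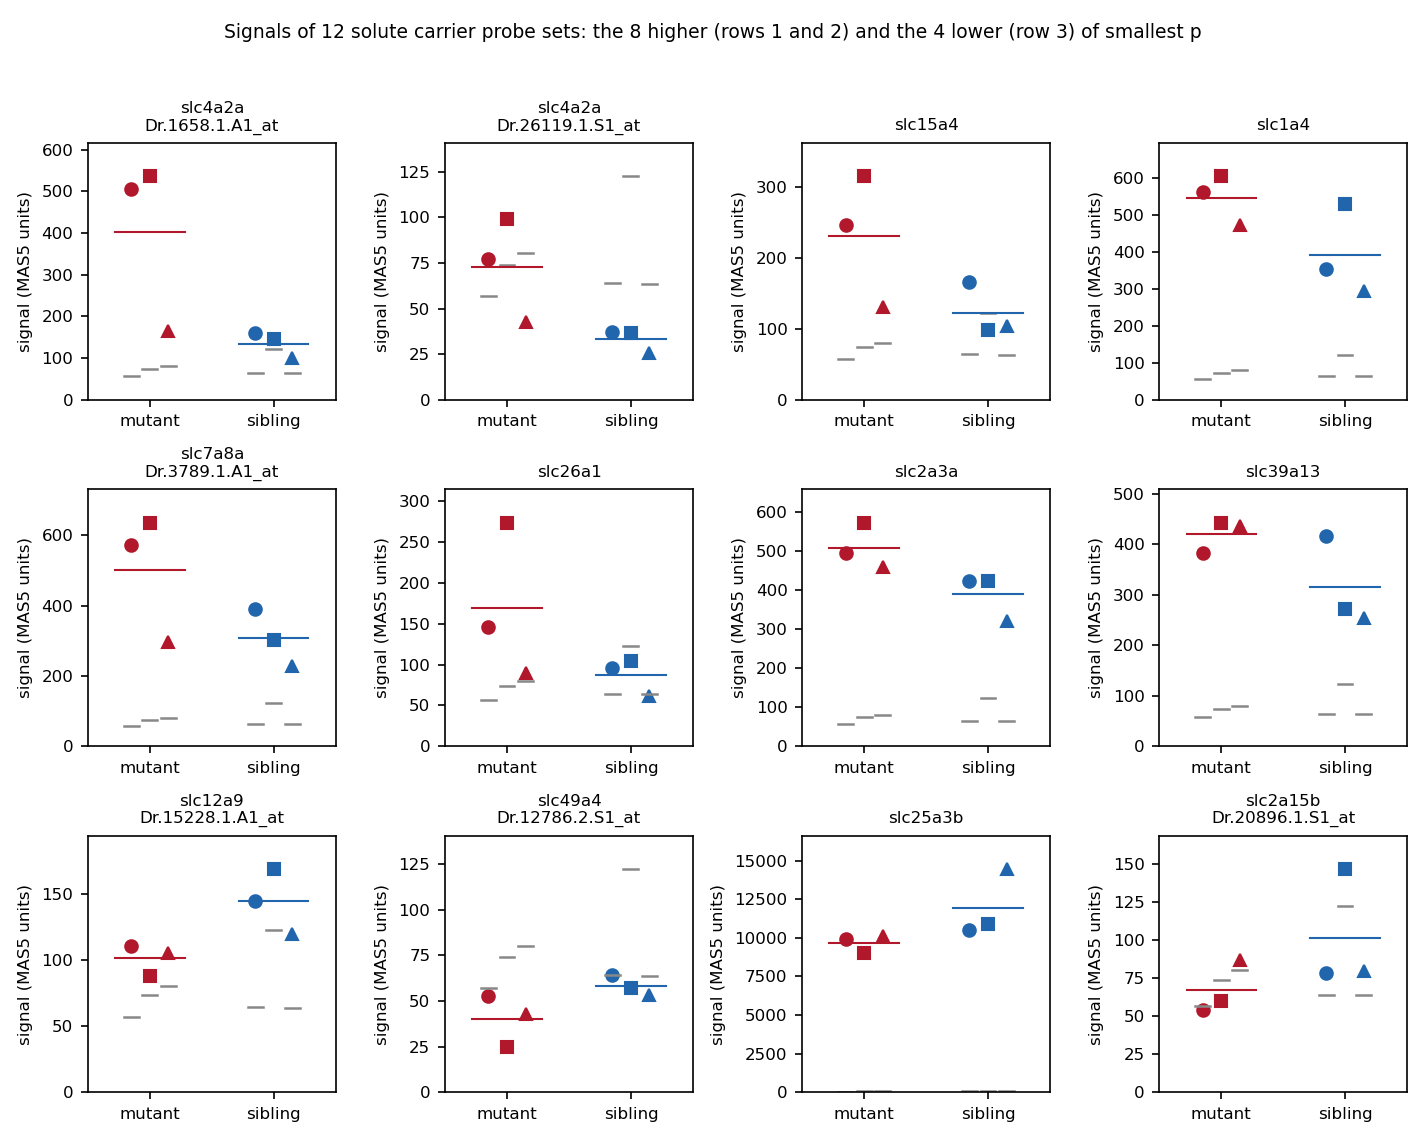
Signals in MAS5 units (y axis, linear from 0) of 12 solute carrier probe sets on each array, mutants in red left of siblings in blue, with circles, squares and triangles for replicates 1, 2 and 3, a horizontal line at each group mean (n = 3 arrays) and short grey dashes at the array's brightest Tag control. The upper 8 panels are the higher probe sets of smallest p and the lower 4 the lower ones. For the first slc4a2a panel, 2 mutant arrays reach 505 and 536, while the third, at 164, lies close to the siblings.

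Other transporters known from the kidney or from ion-transporting skin cells had higher fitted values as well, none of them past the test. The kidney and ionocyte list held 22 names, of which 10 genes were on the array with 13 probe sets. All 9 tested probe sets, 3 of them of slc4a2a, were above 0 (median 0.47, against 0.02 for all tested probe sets), and 8 were with a common median. The list was written with earlier results of these arrays known, so the count is a description. The share of all tested probe sets with a fitted value above 0 was 53.8%, and 39.3% with a common median.

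The sulfate and oxalate exchanger slc26a1 was at 145, 274 and 90.1 in mutants, against 95.5, 105 and 61.8 in siblings, with sibling replicates 2 and 3 at background. Mutant replicate 2 stood out and the groups overlapped, as mutant replicate 3 lay below siblings 1 and 2. The fitted difference was 0.75 ± 0.35, with an unadjusted p of 0.058 in limma. With the block it was 0.0093 (limma, adjusted p = 0.64), where 7.41% of all tested probe sets were under 0.05. The pairing in the block rests on correlations between these arrays alone. The sodium-phosphate cotransporter slc34a2b was at 247, 284 and 248 in mutants, against 252, 131 and 183 in siblings. Its 3 mutant arrays were close together and sibling replicate 1 lay among them, so replicate numbers 2 and 3 carried the difference of 0.47 ± 0.23 (unadjusted p = 0.075) and number 1 was at -0.03. The sodium-bicarbonate cotransporter slc4a4b was at 89.2, 76.8 and 72.8 in mutants, against 71.7, 71.2 and 65.9 in siblings. Its mutants were all above its siblings, but by less than the error of the fit (0.16 ± 0.18), and 1 array of each group was at background.

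In the phosphate family 20 only slc20a1b was above background. It was at 2579, 2194 and 2423 in mutants, against 2229, 2319 and 2358 in siblings, a difference of 0.06 ± 0.12 with a 95% interval of -0.22 to 0.34. Its paralogue slc20a1a, which marks kidney tubules, was at 10.3, 4.5 and 1.1 in mutants, against 2.7, 1.2 and 1.8 in siblings. All 6 arrays were at background and it lay below the intensity filter, so it was not tested. The same held for slc20a2, at 26.5 to 34.3 in mutants and 18.5 to 30.6 in siblings, and for slc34a2a, at 8.9 to 14.8 in mutants and 3.8 to 13.5 in siblings. No probe set was listed under slc4a4a, which was not analysed here. The organic cation transporter slc22a2 lay at or near background on all arrays, at 53.6 to 72.1 in mutants and 49.6 to 63.2 in siblings over its 2 probe sets.

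Among the mutant arrays, the summed signal of pronephros (embryonic kidney) markers was lowest in replicate 3, as were the slc4a2a signals. That array was also the lowest mutant for 52 of the 128 tested members. The matching share over all tested probe sets was not computed, so nothing is read from that count. Mutant replicate 3 was likewise the lowest mutant for the summed red cell, heart muscle, skeletal muscle (8798, 6839 and 4777) and neuron markers and for the hatching gland marker cd63. For the summed pigment cell, yolk syncytial layer and surface layer markers mutant replicate 3 was the highest mutant. Such sums are led by the brightest probe sets of a list. The yolk syncytial layer sum was carried by apoa2 and ctsla. For apobb.1, apoea, gata5 and hnf4a on that list mutant replicate 3 was the lowest mutant. Of 9 pronephros marker genes 7 were on the array and 4 were tested. All 4 had higher fitted values (median 1.07), none past the threshold, where 53.8% of all tested probe sets were above 0. The summed signal of the list was 2062, 2379.6 and 1099 in mutants, against 981, 1166 and 786 in siblings. The kidney markers cdh17, hnf1bb, pax2a and atp1a1a.4 were the 4 tested, lhx1a lay below the intensity filter, and pax8 and wt1a were at background on all 6 arrays. Without mutant replicate 3, hnf1bb and atp1a1a.4 passed (1.97 and 1.48, limma, adjusted p = 0.033 and 0.029), as did 0.172% of all tested probe sets. All 3 siblings and mutant replicate 3 were at background for hnf1bb, so its difference is no exact size. The markers' part in the slc4a2a and slc26a1 values was not tested.

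Amino acid transporters also had mostly higher fitted values. Of the 11 tested probe sets (10 genes) on the amino acid list 10 were above 0 in the mutant (median 0.24), 9 with a common median, and none passed. The share above 0 was 53.8% over all tested probe sets and 63.3% over all tested members (39.3% and 50% with a common median). The 1 below 0, slc38a4, differed by -0.05 ± 0.15, and slc7a1b, outside the list, by -0.07 ± 0.21. The smallest p on the list belonged to slc7a8a, the light chain of a neutral amino acid exchanger that works with the slc3a2 heavy chain. Its first probe set was at 573, 636 and 296 in mutants, against 391, 302 and 228 in siblings. The second was at 622, 460.0 and 268 in mutants, against 369, 294 and 222 in siblings. Mutant replicates 1 and 2 exceeded all siblings on both, and mutant replicate 3 lay within the sibling range. The differences were 0.64 ± 0.30 and 0.53 ± 0.30, with unadjusted p-values of 0.057 and 0.104 in limma. With the block they were 0.0061 and 0.011 (limma, adjusted p = 0.64 for each), where 7.41% of all tested probe sets were under 0.05. The neutral amino acid transporter slc1a4, which is counted in the neurotransmitter list, was at 564, 605 and 473 in mutants, against 353, 530.3 and 294 in siblings. Only sibling replicate 2 lay within its mutant range, and the difference was 0.50 ± 0.22 (limma, unadjusted p = 0.0497).

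Large neutral amino acid carriers of family 43 behaved alike across arrays. The carrier slc43a2b was at 758, 815 and 383 in mutants, against 618, 421 and 361 in siblings. The carrier slc43a2a was at 1447, 1537 and 766 in mutants, against 1053, 1020.4 and 893 in siblings. In both, mutant replicates 1 and 2 lay above all siblings, while mutant replicate 3 was near the bottom of the sibling range for slc43a2b and below it for slc43a2a. Without that array their differences were 0.77 and 0.59, against 0.43 and 0.27 with all arrays, and neither passed. The third member, slc43a1a, differed by 0.15 ± 0.14. The cationic amino acid transporter slc7a3a was at 841, 1283 and 617 in mutants, against 817, 620.2 and 570.2 in siblings, where mutant replicate 2 stood well above the rest and mutant replicate 1 just above the highest sibling. Differences of the heavy chains were small: slc3a2a differed by 0.05 ± 0.14 and slc3a2b by 0.21 ± 0.17. Another 5 probe sets list slc3a2b together with calmodulin genes and were not counted as members.

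Sodium-coupled amino acid transporters of family 38 had 5 of 7 probe sets above 0 (median 0.24), where 53.8% of all tested probe sets were above 0. For slc38a8b the signal was 351, 511 and 142 in mutants, against 184, 211 and 118 in siblings. Its difference of 0.78 ± 0.40 rested on mutant replicates 1 and 2, since replicate 3 lay within the siblings, and it was 1.27 without that array. The glutamine transporters slc38a5b and slc38a2 differed by 0.24 ± 0.15 and 0.15 ± 0.15. The 2 probe sets of slc38a7, a lysosomal glutamine transporter in mammals, disagreed in sign: the first differed by 0.41 ± 0.26 and the second by -0.19 ± 0.23. The peptide and histidine transporter slc15a4, which in mammals sits in lysosomes, was at 247, 315 and 131 in mutants, against 166, 98.9 and 104 in siblings. It was higher in the mutant at every replicate number (0.53, 1.53 and 0.30), with mutant replicate 3 below sibling replicate 1 (0.79 ± 0.31, limma unadjusted p = 0.032). Sibling replicate 2, which enters the 1.53, was at background for slc15a4.

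**Figure D3:**
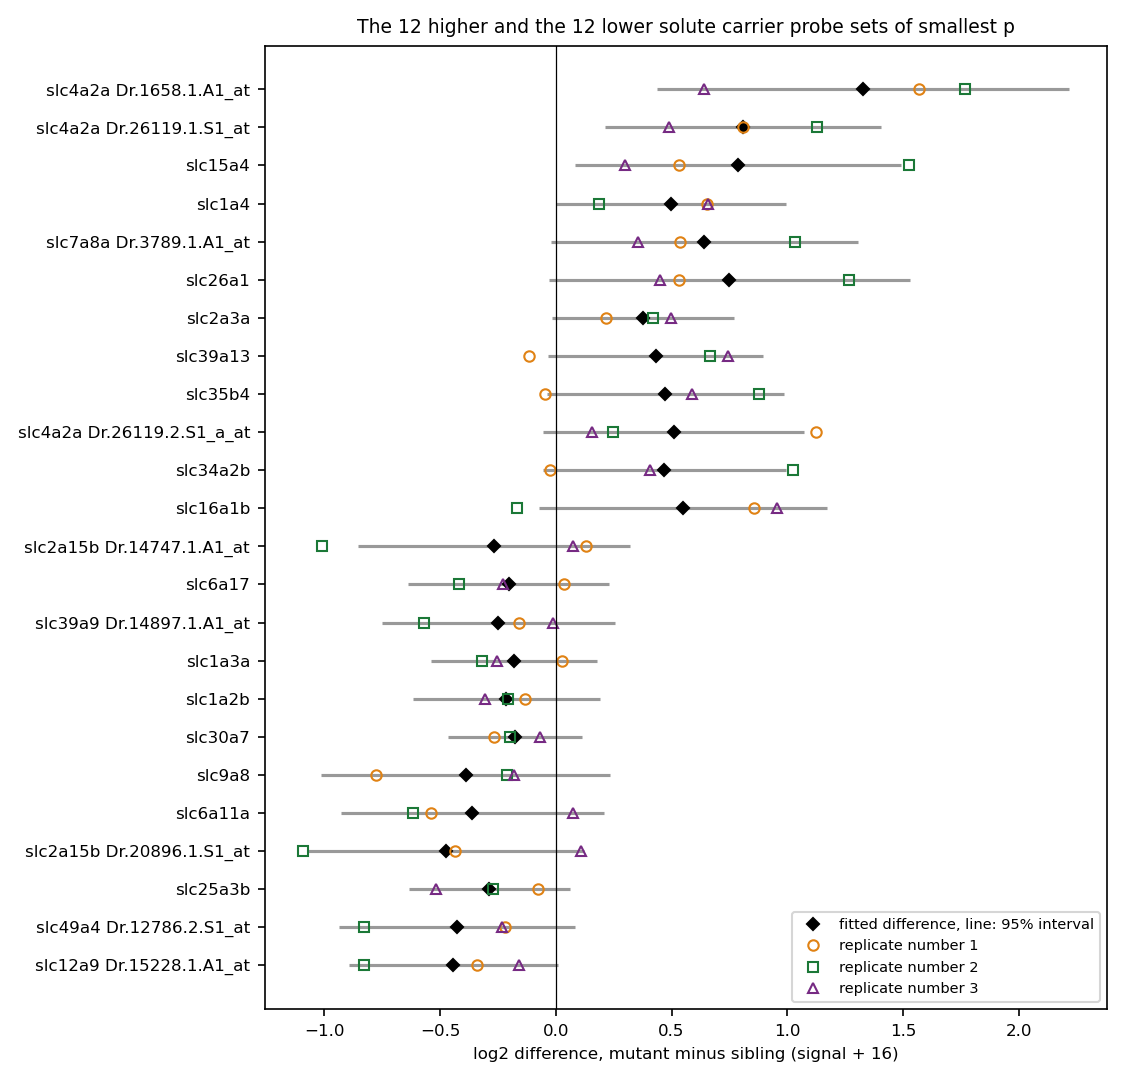
Log2 difference, mutant minus sibling (x axis), of the 12 higher and the 12 lower solute carrier probe sets of smallest p: black diamonds are the fitted values with 95% intervals from limma, open symbols the difference between the 2 arrays of each replicate number. The intervals of the top 4 probe sets lie above 0, from slc4a2a (0.44 to 2.22) to slc1a4, and all others span 0.

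Sugar and monocarboxylate transporters were mixed. The list of glucose and lactate carriers had 4 of 7 tested probe sets above 0 with a median of 0.061 (-0.019 with a common median). The 3 below 0 were slc2a10 (-0.02 ± 0.20), slc2a11b (-0.03 ± 0.22) and slc2a8 (-0.05 ± 0.22). The glucose transporter slc2a3a was at 495, 572 and 459 in mutants, against 424, 424 and 321 in siblings. Its groups did not overlap, and the difference of 0.38 ± 0.18 had the same sign at all replicate numbers (0.21, 0.42 and 0.50), with an unadjusted p of 0.059 in limma. The glucose transporter slc2a2, a liver and pancreas gene in adults, was at 197, 639.6 and 240.4 in mutants, against 315, 163 and 117 in siblings. Here mutant replicate 2 alone was high and the signs differed between replicate numbers (-0.63, 1.87 and 0.95), so the difference of 0.73 ± 0.44 was not larger than the spread. The pigment cell gene of medaka slc2a15b had 2 probe sets with lower fitted values. The first was at 53.9, 60.4 and 87.2 in mutants, against 78.5, 147 and 79.7 in siblings, with mutant replicates 1 and 2 at background. The differences were -0.47 ± 0.27 and -0.27 ± 0.26, mostly at replicate number 2 (-1.09 and -1.01), where sibling replicate 2 was the highest array. All 5 pigment cell markers on the array had fitted values below 0 (median -0.28), and 0 had an unadjusted p under 0.05 in limma. Of all tested probe sets 53.8% were above 0, or 39.3% with a common median. Among the markers, tyr was at background on all 6 arrays and sox10 differed by -0.05 ± 0.16. The 5 markers had summed signals of 1401, 1226 and 1597 in mutants, against 1649, 2044 and 1604 in siblings. Their part in the slc2a15b values was not tested, and no probe set was listed under slc24a5 or slc45a2, which were not analysed here.

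Monocarboxylate carriers of family 16 had 4 of 4 probe sets above 0 (median 0.37), 3 of 4 with a common median. The shares over all tested probe sets were 53.8% and 39.3%. The lactate and pyruvate transporter slc16a1b was at 223, 100.3 and 182 in mutants, against 116, 115 and 86.2 in siblings. Mutant replicate 2 lay within the siblings and the other mutants above them, and the difference was 0.55 ± 0.28. Sibling replicate 2 was at background for slc16a1b. For slc16a9b, at 283, 407 and 139.8 in mutants, against 189.9, 188 and 174 in siblings, the siblings had an SD of 8.6 while the mutants lay on both sides of them. The members slc16a12b and slc16a3b differed by 0.31 ± 0.20 and 0.06 ± 0.24.

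**Figure D4:**
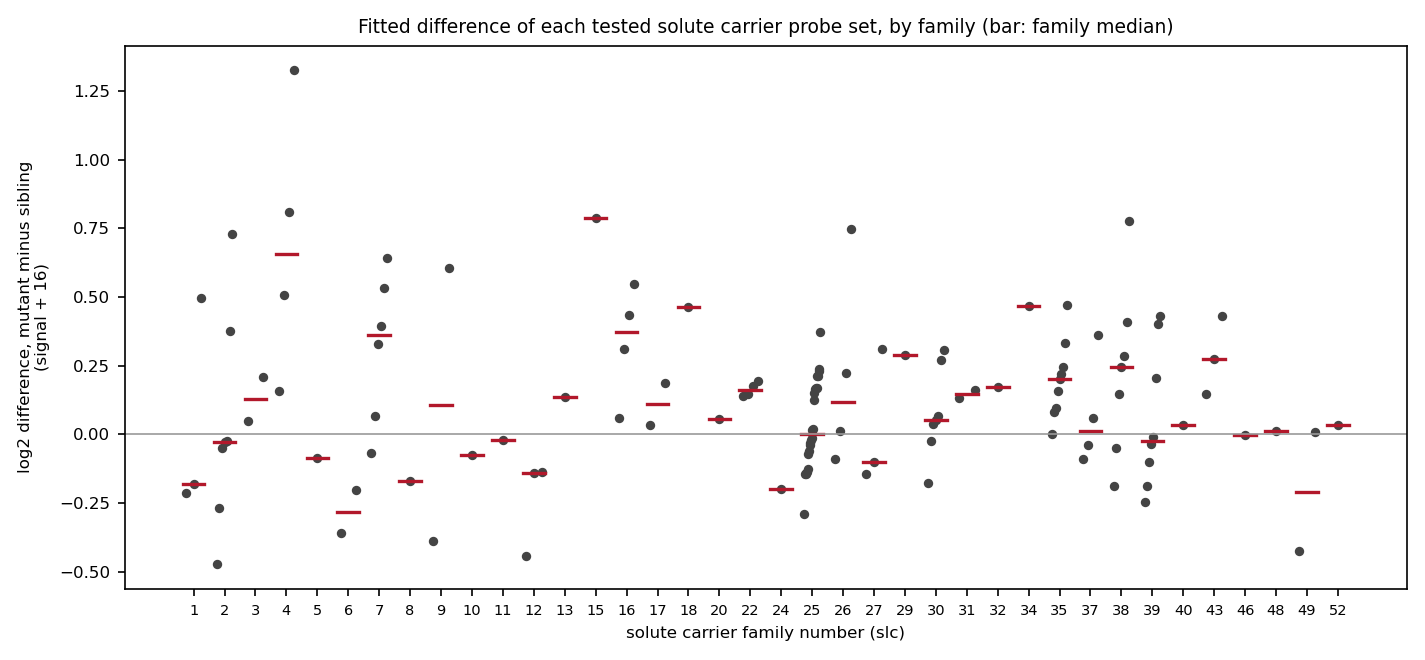
Fitted log2 difference, mutant minus sibling (y axis), of each of the 128 tested probe sets, by solute carrier family number (x axis), with a red bar at each family's median. Family 25 holds 24 points centred on 0, and family 4 has the 1 point above 1, slc4a2a.

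Mitochondrial carriers, family 25, move metabolites and ions over the inner membrane of mitochondria and were the largest family, with 29 probe sets of 25 genes. Of the 24 tested, 12 were higher and 12 lower, with a median of 0.0012. At an unadjusted p under 0.05 in limma there were 0, with or without the block. Over all tested probe sets the shares were 3.03% without the block and 7.41% with it. The phosphate carrier slc25a3b, which supplies phosphate for ATP synthesis, was at 9923, 9037 and 10090.3 in mutants, against 10474, 10898 and 14444 in siblings. All its mutants lay below all its siblings, sibling replicate 3 was the highest array, and the difference was -0.29 ± 0.15 (limma, unadjusted p = 0.094). After quantile normalization it was -0.12. Carriers of aspartate and glutamate (slc25a12, -0.15 ± 0.15), of acylcarnitine (slc25a20, -0.14 ± 0.24) and of citrate (slc25a1a, -0.14 ± 0.16) lay within 1 standard error of 0. The carrier of pyrimidine nucleotides, slc25a33, lay further from 0 than its standard error (0.23 ± 0.17).

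In family 25, 3 genes had more than 1 probe set, of which slc25a39 is described with the iron and red cell list. For the oxoglutarate carrier slc25a11 they differed by -0.14 ± 0.18 and -0.02 ± 0.17. The 3 probe sets of slc25a14, an uncoupling protein of brain in mammals, differed by 0.12 ± 0.25, 0.21 ± 0.25 and 0.17 ± 0.25. The first and second carry the same cluster number and the second is marked as prone to cross-hybridisation, so they are not independent. The largest fitted value of the family was 0.37 ± 0.24, for slc25a16, with replicate numbers of both signs (-0.24, 1.0 and 0.36).

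Members of the iron and red cell list had fitted differences close to 0. Besides iron and haem transporters, the list holds mitochondrial carriers of family 25. On it 6 probe sets were tested, 4 above 0 and 2 below (median 0.016), from -0.039 to 0.17. After quantile normalization 1 of the 6 was above 0 (median -0.032), and likewise with a common median (-0.064). The iron importer slc11a2, mutated in an anaemic zebrafish line, was at 2058, 1886 and 1897 in mutants, against 2065, 1819 and 2040.3 in siblings. The groups lay over each other, and its 95% interval was -0.30 to 0.26. The iron exporter slc40a1 was at 614, 384 and 326 in mutants, against 457, 407 and 385 in siblings, with mutant replicate 1 the highest array and mutant replicate 3 the lowest (0.03 ± 0.23). The haem transporter slc48a1b differed by 0.01 ± 0.17 and the mitochondrial carriers slc25a38b and slc25a39 by 0.02 ± 0.21 and 0.17 ± 0.16. A second probe set of slc25a39 had the opposite sign (-0.04 ± 0.25), with mutant replicate 2 the lowest array there and the highest on the first. The mitochondrial iron importer slc25a37, which developing red cells need for haem, was at 41.3, 30.5 and 43.3 in mutants, against 35.7, 59 and 27.3 in siblings, at background on all 6 arrays.

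Red cell markers had higher fitted values in all 5 tested genes (median 0.90), none past the threshold, where 53.8% of all tested probe sets were above 0. The summed signals of the list were 14666, 8605 and 3828 in mutants, against 3109.8, 4258 and 4077 in siblings. Mutant replicate 1 was highest for these markers, as for slc40a1, and mutant replicate 3 lay within the siblings. Without mutant replicate 3 the globins hbae3 and hbbe3 passed (1.55 and 1.61, limma, adjusted p = 0.047 and 0.048), as did 0.172% of all tested probe sets. The markers' part in the slc40a1 values was not tested. The copper importer slc31a1 was at 2483, 2792 and 1695 in mutants, against 2239.8, 1955 and 2026 in siblings on its brighter probe set. On both of its probe sets mutant replicates 1 and 2 lay above all siblings and mutant replicate 3 below them. The differences of 0.13 ± 0.19 and 0.16 ± 0.17 were within their errors, and they were 0.34 (limma, unadjusted p = 0.042) and 0.31 without mutant replicate 3.

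Zinc transporters lower zinc in the cytosol (family 30) or raise it (family 39). Of 15 tested probe sets 8 were above 0 and 7 below (median 0.038, and -0.042 with a common median). The Golgi zinc transporter slc30a7 was at 1209, 1319 and 1438 in mutants, against 1459.7, 1515 and 1507 in siblings. All mutants were below all siblings, by a small amount (-0.18 ± 0.13). For slc30a9, 1 probe set of 3 had mutants above siblings (345, 355 and 376 in mutants, against 326, 313 and 229 in siblings), and the others differed by 0.05 ± 0.23 and 0.04 ± 0.22. The zinc transporter slc39a13 was at 383, 442 and 437 in mutants, against 416, 273 and 254 in siblings, with sibling replicate 1 among the mutants (0.43 ± 0.21, limma unadjusted p = 0.065). The endoplasmic reticulum zinc transporter slc39a7 differed by -0.19 ± 0.21 and -0.10 ± 0.12 on its 2 probe sets. The probe sets of slc39a9 had opposite signs (-0.25 ± 0.22 and 0.20 ± 0.23).

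Transporters of neurotransmitters were mixed. The vesicular acetylcholine transporter slc18a3a, a marker of cholinergic neurons, was at 121, 201 and 111 in mutants, against 103, 102 and 86.5 in siblings. Its mutants were all above its siblings, mutant replicate 2 the furthest (0.46 ± 0.24), and sibling replicate 2 was at background. The vesicular transporter of GABA and glycine, slc32a1, was near background and differed by 0.17 ± 0.20. On the plasma membrane side, the GABA transporter slc6a11a was at 536, 602 and 1102 in mutants, against 786, 931 and 1046 in siblings. Mutant replicates 1 and 2 lay below all siblings and mutant replicate 3 above them all, and the difference was -0.36 ± 0.25 with all arrays and -0.67 without mutant replicate 3. The other tested member of family 6, slc6a17, differed by -0.20 ± 0.19, with 2 mutant arrays and 1 sibling array at background. The glutamate transporters slc1a3a and slc1a2b differed by -0.18 ± 0.16 and -0.22 ± 0.18. Of the 8 neuron markers 7 were tested, 3 above 0 and 4 below, with a median of -0.018.

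Family 35, named for nucleotide-sugar transporters that feed glycosylation in the Golgi and endoplasmic reticulum, was above 0 in 9 of 9 tested probe sets (median 0.20) and in 8 of 9 after either rescaling. Over all tested probe sets the share above 0 was 53.8%, or 47.7% after quantile normalization and 39.3% with a common median. Of the 22 families with 2 or more tested probe sets, 8 were above 0 throughout and 2 below 0 throughout. That contrast depends on the scaling. With a common median, of these families only 4, 22, 31 and 43 were above 0 throughout, and 6, 12 and 49 were below 0 throughout. Family 31 is 1 gene. The largest value of family 35 was that of slc35b4, at 363, 413 and 339.6 in mutants, against 376, 217 and 221 in siblings, where sibling replicate 1 lay among the mutants (0.47 ± 0.23). The next, slc35f2 and slc35e1, differed by 0.33 ± 0.24 and 0.24 ± 0.17, with sibling replicate 2 at background for slc35f2. In the glucose-phosphate family 37, 2 of 4 were above 0, and the 2 probe sets of slc37a4a, the glucose-6-phosphate transporter, had opposite signs (0.36 ± 0.28 and -0.09 ± 0.22).

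The lowest fitted values were spread over several families. For slc12a9, of the cation-chloride cotransporter family, the tested probe set was at 111, 88.1 and 105 in mutants, against 144, 169 and 119.7 in siblings. No mutant reached the lowest sibling, and the difference of -0.44 ± 0.20 had the smallest p among the lower members (limma, unadjusted p = 0.054). Its other probe set was not tested. The potassium-chloride cotransporters slc12a4 and slc12a7b, of the same family, differed by -0.14 ± 0.21 and -0.14 ± 0.20. The sodium-proton exchanger slc9a8 differed by -0.39 ± 0.28, with 2 mutant arrays and 1 sibling array at background. Its relative slc9a7 was at 202, 501 and 195 in mutants, against 185, 121 and 230.4 in siblings, where mutant replicate 2 alone was far above the other 5 arrays (0.60 ± 0.36). Sibling replicate 2 was at background for slc9a7. For slc49a4 1 probe set differed by -0.43 ± 0.23 with all 6 arrays at background, while the other differed by 0.01 ± 0.20. The sodium-calcium exchanger slc8a4b, the only member of the heart calcium exchange list on the array, differed by -0.17 ± 0.20, with 2 arrays of each group at background. Of 6 heart muscle markers 4 were on the array, and all 4 had lower fitted values (median -1.04), none past the threshold. All 4 had an unadjusted p under 0.05 in limma, as did 3.03% of all tested probe sets. Of all tested probe sets, 1.03% were under that level and lower. Mutants were picked by a reporter under the myl7 promoter, and myl7 is 1 of the 4, so this count is not independent of the sorting. The summed signal of the 4 markers was 479, 430.2 and 180.2 in mutants, against 1073, 975 and 469.5 in siblings, and their part in the slc8a4b value was not tested. The fatty acid transporter slc27a2a was at 3539, 2701 and 3006 in mutants, against 3938, 3280.1 and 2741 in siblings (-0.10 ± 0.17).

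Across all members, the 3 mutant arrays lay above the 3 sibling arrays for 6 of the 128 probe sets (4.69%, against 3.71% of all tested) and below them for 4 (3.12%, against 3.04%). The 6 were the first and second slc4a2a probe sets, slc4a4b, slc2a3a, slc18a3a and the slc30a9 probe set above, and the 4 were slc12a9, slc25a3b, slc30a7 and slc49a4. The second slc4a2a probe set reached the intensity filter through its mutant arrays, and that of slc49a4 through its sibling arrays. The directions of these probe sets are not independent of the filter. Taken by replicate number, 29 were higher in the mutant at all 3 numbers (22.7%, against 16.2% of all tested) and 10 lower at all 3 (7.81%, against 14.7%). The median difference of the members was 0.034, 0.13 and 0.11 at replicate numbers 1, 2 and 3, against 0.0042, 0.0091 and 0.025 for all tested probe sets.

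**Figure D5:**
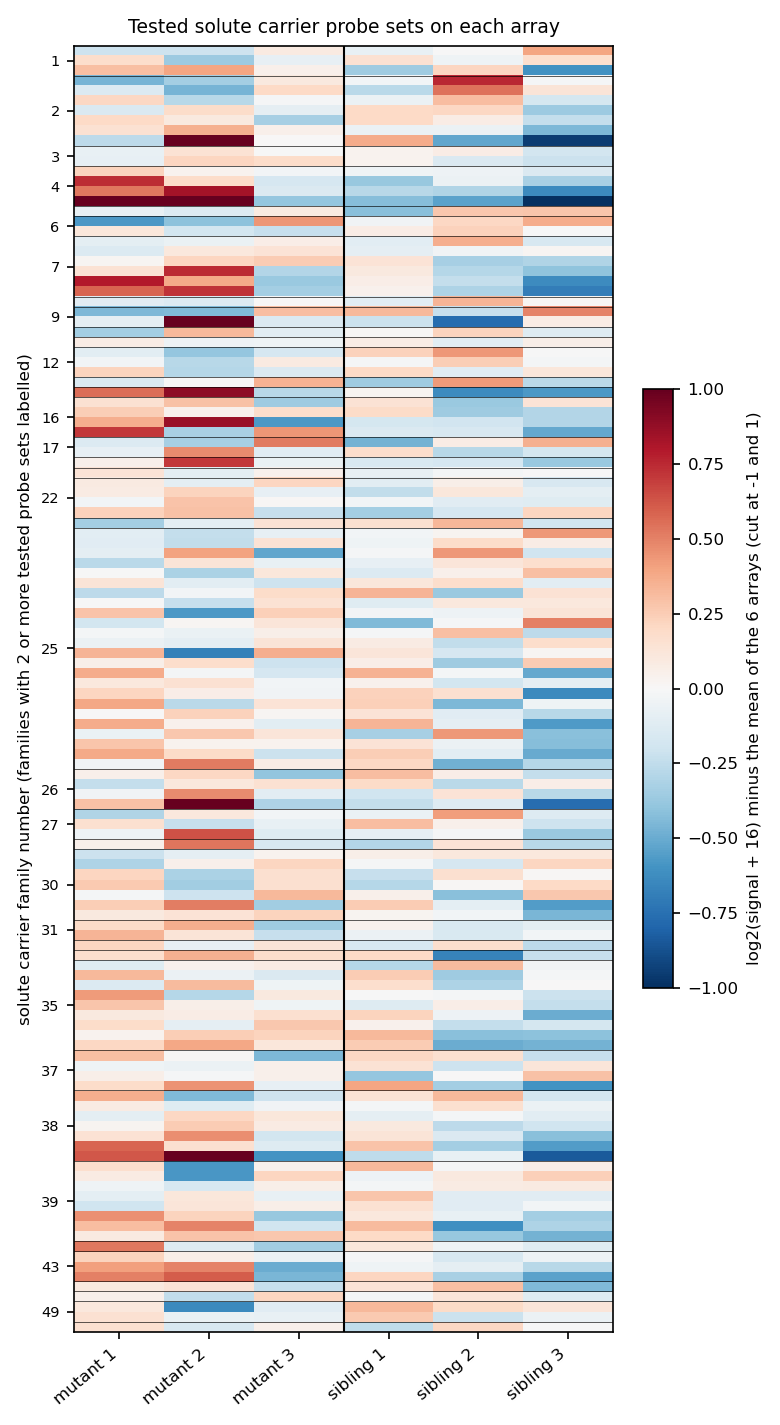
Log2(signal + 16) of each of the 128 tested probe sets (rows, by family number and then by fitted difference) on each array (columns, mutants left of siblings), as the difference from the mean of the 6 arrays; red is higher, blue lower, cut at -1 and 1. The slc4a2a probe set of smallest p (505, 536 and 164 in mutants) is red in mutant replicates 1 and 2, and slc2a2 and slc9a7 are dark red in mutant replicate 2 alone.

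The 27 members below the intensity filter were not tested, and 25 of them were at background on all 6 arrays. The exceptions, slc25a48 and the other probe set of slc12a9, were above it in mutant replicate 2 alone, at 75.2 and 80.1. They include genes of adult kidney and gut in other vertebrates: the sulfate transporter slc13a1, at 3.6 to 12.7 in mutants and 1.7 to 6.2 in siblings, the peptide transporter slc15a1b, and the neutral amino acid transporters slc6a19a.1 and slc6a19b. The dopamine transporter slc6a3 was at 6.5, 6.9 and 6.9 in mutants, against 5.4, 6.3 and 4.8 in siblings. Of genes with more than 1 tested probe set there were 15, and in 5 of them the probe sets had fitted values of both signs.

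As other transport genes, the sodium pump, whose gradient drives many solute carriers, and the ABC transporters were read in the same fit. Of 15 tested sodium pump probe sets 8 were above 0 and 7 below (median 0.041, and -0.039 with a common median), and 0 passed. At an unadjusted p under 0.05 there were 3 of 15, all higher (20%, against 3.03% of all tested probe sets): atp1a1a.3 (0.92 ± 0.32), atp1a1a.4 and 1 probe set of the beta subunit atp1b1a (0.41 ± 0.17). Among these, atp1a1a.4 was already counted with the pronephros markers above. The lowest of the 7 below 0 was another alpha subunit, atp1a1a.2 (-0.62 ± 0.29, limma unadjusted p = 0.062). The alpha subunit atp1a1a.4 was at 632, 619 and 285 in mutants, against 204, 233 and 207 in siblings, with mutant replicates 1 and 2 well above the third, as for slc4a2a. Its difference was 1.11 ± 0.28 (limma, adjusted p = 0.942), and it passed without mutant replicate 3, as given above. Of the 12 tested ABC transporter probe sets 5 were above 0 and 7 below, from -0.36 to 0.31, and 0 had an unadjusted p under 0.05.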

How the data were processed

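RNA of whole-embryo pools was measured on 6 single-colour arrays, assigned to 3 hand2 mutants and 3 wild-type siblings by their titles. The deposited values are linear intensities, 1 per probe set and array, made with MAS5 per the submitters' processing notes, with its settings and the annotation's genome build not given in the sources used here. Of 15617 rows, 115 controls were removed, and the lowest 25% of the remaining 15502 by mean log2(signal + 16) were left out, which left 11626 to test. Gene names came from the platform annotation (1 symbol for 10795 probe sets, several for 135, none for 4572). A RefSeq gene table (assembly GRCz12tu) matched all 155 members and renamed 0 of them; its coordinates were not used. Limma 3.58.1 (R 4.3.3) compared the genotypes in a 2-sided test (lmFit, then eBayes with its trend option), and Benjamini-Hochberg adjustment ran over the 11626 with a threshold of 0.05. The members, role lists, marker lists, tests and the Tag control rule were chosen with earlier results of these data known. The procedure was also tried on simulated arrays. The number of arrays limits the precision: the 95% intervals of the members extended 0.49 to either side of the fitted value at the median.

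The rule for named probe sets took slc20a1a, slc34a2b and slc4a4a where listed, the 12 higher and 12 lower of smallest p, the 10 of highest mean signal, the smallest p and the highest mean in each family with 4 or more tested, and every role list member. Not every probe set taken by this rule is described above. Outside the rule, and chosen after their values were seen, are slc4a1ap, slc6a19a.1, slc6a19b, slc7a1b, slc9a7, slc12a4, slc12a7b, slc15a1b, slc16a9b, slc35e1, slc35f2, slc38a7 and slc43a2a. Replicate numbers 1 to 3 occur in both groups, and the labels do not say what a number shares. Deviations from the group means correlated at 0.193, 0.119 and 0.482 between arrays of the same number, each over 0.1. On these correlations alone, same-numbered arrays were treated as pairs in the block fit and in the differences by replicate number. The main fit held no replicate term, so its p-values and standard errors are unpaired. Mutant replicate 2 correlated more with sibling replicate 1 (0.203). Alternatives were quantile normalization, a common median, offsets of 1 and 64, no filter or 50% left out, the block, array weights and leaving out each array.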

Additional observations from a re-analysis of the deposited data

How the results depend on the processing

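Adjusted calls were stable in most settings and the counts at an unadjusted p were not. Over all probe sets 1 passed, hand2, against 20 without mutant replicate 3 and 0 without sibling replicate 1 or 2. Among the solute carriers 0 passed in limma, with 4 at an unadjusted p under 0.05, and 0 passed under each other scaling, offset and filter, with array weights and with the replicate block. Leaving out single arrays gave 0 to 1, the 1 being the slc4a2a probe set of smallest p without mutant replicate 3. The number at an unadjusted p under 0.05 was 12 with the replicate block, 10 with array weights (4.82% of all tested probe sets passed that level) and 1 with the lowest 50% left out; without single arrays it ran from 2 to 18. The median difference of 0.076 was -0.0041 with a common median and 0.147 with the lowest 50% left out, and ran from 0.074 to 0.133 without single arrays, highest without mutant replicate 3. The cause was not tested. The replicate block changed no other call. Without slc4a1ap and slc7a6os, or with 1 probe set for each of 110 genes, settings added after seeing the data, neither the counts nor the median moved beyond their limits. Of 94 named probe sets tested, 60 kept their sign under every setting, and the 34 others differed from 0 by less than 1 standard error. Signals near the Tag controls limit slc4a2a, slc26a1, slc22a2 and slc49a4. Sibling replicate 2 was also at background for slc15a4, slc18a3a, slc16a1b, slc9a7 and slc35f2.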
